A study of Mus musculus with 25 samples.

Results

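The mir-200 family and mir-205 are microRNAs known from epithelial cells, and here they were read in whole blood. The 6 precursors, 6 of the 1193 in the count table, were taken by name: mmu-mir-200b, mmu-mir-200a and mmu-mir-429 of 1 cluster, mmu-mir-200c and mmu-mir-141 of another, and mmu-mir-205. They are called by these names without the species prefix from here on. The blood came from male mice of the inbred strain C57BL/6, with no allele, transgene or agent named for any group. Ages were 2, 9, 15, 24 and 30 months, from young adulthood to old age, with 5 libraries each and 25 in all. Every library carries its own number in the labels. The labels do not say in words that each is a separate animal, so p-values measure the spread between these libraries. A value is a raw count of reads assigned to a whole hairpin, so the arms of a precursor are not separated.

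MicroRNAs are cut from hairpin precursors and repress messenger RNAs that pair with their seed, bases 2 to 8 of the mature strand. The mir-200 family is known for holding down Zeb1 and Zeb2, transcription factors that switch off E-cadherin, and these factors in turn repress the mir-200 clusters. This mutual repression keeps epithelial cells epithelial. mir-205 is known from stratified epithelium such as skin and also acts on the Zeb factors.

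The mature strands below, from RefSeq on GRCm38.p6, show why the family is counted as 2 seed groups that cut across its clusters. All 6 precursors matched by name. Each is the strand background knowledge names as the main product, printed 5′ to 3′ with the seed in capitals.
miR-200b-3p: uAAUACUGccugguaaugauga
miR-200c-3p: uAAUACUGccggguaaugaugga
miR-429-3p: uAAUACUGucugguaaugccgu
miR-200a-3p: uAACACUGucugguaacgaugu
miR-141-3p: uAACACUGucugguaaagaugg
miR-205-5p: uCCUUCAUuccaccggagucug
The first 3 share the seed AAUACUG and the next 2 share AACACUG, and no other mature mouse microRNA in the RefSeq table has either seed. The seed CCUUCAU of miR-205-5p was unique in that table. From the 5′ end, miR-200a-3p differs from miR-141-3p at 2 of 22 positions, C17A and U22G. Over the same length miR-200b-3p differs from miR-200c-3p at 2 positions, U11G and A22G. The sources used here do not say how reads with so few differences were assigned.

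The cluster of mir-200b, mir-200a and mir-429 spans chr4:156053905-156055750 on the minus strand, 1846 bases within an intron of Ttll10 on the same strand by GENCODE M21. mir-429 also lies in an exon of the non-coding transcript Gm13648. The cluster of mir-200c and mir-141 spans chr6:124717914-124718390, also on the minus strand, 477 bases in an intron of the non-coding gene Gm15884. It lies between the protein-coding genes Phb2 and Ptpn6, 964 bases from Phb2 and 2317 from Ptpn6, and mir-141 overlaps an exon of the unclassified transcript Gm29008. mir-205 lies at chr1:193507463-193507530 on the minus strand, in an exon of the long non-coding RNA 4631405K08Rik. These positions are those of the named hairpins in GRCm38, not of the build the authors used, which is not given.

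The hairpins of the most abundant member and of the 2 members that passed an age test are printed as the units that were counted. Capitals mark both annotated mature arms, whose reads are pooled in each count.
mir-141: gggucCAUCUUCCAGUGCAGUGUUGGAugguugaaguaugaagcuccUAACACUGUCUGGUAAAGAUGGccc
mir-200c: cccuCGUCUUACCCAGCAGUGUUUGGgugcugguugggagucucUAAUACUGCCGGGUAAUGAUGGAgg
mir-205: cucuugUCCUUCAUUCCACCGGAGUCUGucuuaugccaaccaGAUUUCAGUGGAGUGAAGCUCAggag
They are 72, 69 and 68 bases long.

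Library totals ran from 4.884 to 24.25 M counts (M, mega). They were lower at 30 months, at 5.747 to 13.07 M, than at 2 months, at 16.21 to 22.25 M. Rare members are therefore measured less precisely at 30 months. At 24 months totals ran from 4.884 M, the smallest of all, to 19.66 M, with a median of 17.3 M. Levels are given as CPM, counts per M of library after scaling by TMM factors (trimmed mean of M-values). The counting floor was set at 3 counts, which is 0.124 CPM in the largest library and 0.614 CPM in the smallest, before TMM scaling. Floors and intervals cover counting error only, since the reads carry no molecular identifiers. The red cell markers mir-451a, mir-144, mir-486a and mir-486b summed to at least 460200 CPM in every library, a sum that counts any shared mir-486 reads more than once.

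The members fell into those at or above the floor in every library and those below it in some. mir-141, mir-200c and mir-205 were at or above 3 counts in 25 of 25 libraries, with lowest and median counts of 81 and 787, 22 and 101, and 4 and 27. mir-429 reached 3 counts in 22 libraries, and mir-200a and mir-200b in 19 each. mir-200b was at 0 in 24 months replicate 4, the smallest library, which allows up to 0.528 CPM, the level of 3 counts after TMM scaling. mir-200a was at 0 in 30 months replicate 4, which allows up to 0.3003 CPM. At 10 counts, mir-205 was left with 22 libraries, mir-200a with 10, mir-429 with 5 and mir-200b with 3.

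The chromosome 6 cluster supplied nearly all mir-200 family reads. Its share of the summed family CPM was 97.7% ± 1.41 over all libraries (SD, n = 25), and the lowest library had 92.9%. Per 100 bases of hairpin, mean levels were 82.6 CPM for mir-141, 9.44 for mir-200c, 2.62 for mir-205, 0.793 for mir-200a, 0.471 for mir-429 and 0.458 for mir-200b. Not divided by length, the mean level was 59.4 CPM for mir-141 and 6.51 for mir-200c, from reads assigned to each precursor. As counted, mir-141 held 98.7% ± 1.29 of the CPM of the 2 precursors with the AACACUG seed (SD, n = 25). mir-200c held 90.1% ± 3.86 of that of the 3 with AAUACUG (SD, n = 25), from 81.1% to 95.7%.

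mir-205, the stratified epithelium member, was lowest in the oldest mice. Its 5 libraries of 2 months held 2.24, 2.41, 2.10, 1.23 and 1.39 CPM. At 9 months they held 2.54, 2.41, 2.19, 1.34 and 3.12 CPM, and at 15 months 2.00, 2.39, 1.11, 3.64 and 2.75 CPM. The libraries of 2, 9 and 15 months thus overlapped widely, with lower and higher libraries at each age. At 24 months the values were 2.23, 1.24, 1.74, 0.703 and 1.09 CPM, and at 30 months 0.752, 0.921, 1.13, 0.701 and 1.19 CPM. All 5 libraries of 30 months lay below the lowest of 2 months, by a narrow gap, at 1.19 against 1.23 CPM. Groups without overlap and lower at 30 months were found for 5.03% of all tested precursors.

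Ordered by mean, mir-205 stood at 2.38 ± 0.932 CPM at 15 months, 2.32 ± 0.646 at 9 months, 1.87 ± 0.527 at 2 months, 1.40 ± 0.592 at 24 months and 0.940 ± 0.220 at 30 months (n = 5 each, error as SD). Neighbours in this order overlapped in every case. At 30 against 2 months it fell by 1.004 on the log2 scale (SE 0.33, edgeR adjusted p = 0.0426), and 5 of 5 old libraries lay below the 2-month mean. It was the 1 member called of the 4 tested in this comparison, where 14.2% of all tested precursors were called and 5.03% were called lower. The trend over all ages was −0.33 log2 units per 10 months (SE 0.11, edgeR adjusted p = 0.0402), and the test of any difference between ages gave an edgeR adjusted p = 0.0454. Of all precursors tested, 19.8% passed the trend test, 9.17% with a fall and 10.7% with a rise, and 7.99% the test of any age. The trend call did not need the 2-month libraries, without which the slope was −0.58 (SE 0.14, edgeR adjusted p = 0.0307), in a fit where 2.74% of precursors passed.

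Each of these mir-205 calls lay close to the threshold and few settings kept it. At 30 months the counts were 10, 10, 8, 7 and 12 reads, and the exact Poisson 95% interval of the 7 runs from 2.81 to 14.4. The 30-month call ended in 31 of 40 alternatives, with log2 changes from −1.16 to −0.61 and no change of direction. With every library thinned to the smallest total, the log2 change was −0.61 (SE 0.44, edgeR adjusted p = 0.375). With library totals in place of TMM factors it was −0.75 (edgeR adjusted p = 0.151), and the 2 ages then overlapped. That scaling moved the median of all tested precursors from −0.04 to 0.20, and relative to the median mir-205 stood at −0.97 with TMM factors and −0.96 with totals. Within the 4 sequencing lanes that held both ages, named in the column headers, the log2 ratio of 30 to 2 months was −1.78 in lane 5, −1.11 in lane 6, −0.42 in lane 7 and −0.30 in lane 8. Each ratio sets 1 library of 30 months, or 2 in lane 6, against 1 library of 2 months. With lane in the fit the change was −1.07 (SE 0.36, edgeR adjusted p = 0.0583).

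**Figure D1:**
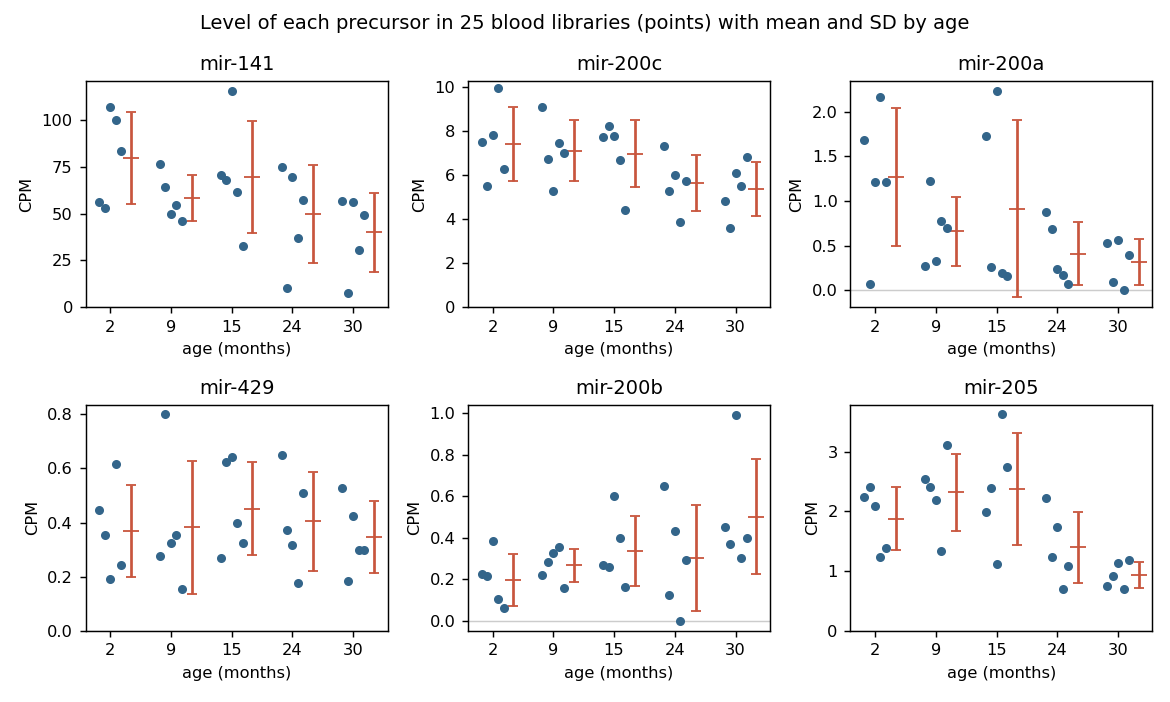
Level in CPM (linear vertical axes, scaled separately) of the 6 precursors by age in months: blue points are the 5 libraries of an age in replicate order, red bars the mean and SD. mir-205 at 30 months sits between 0.701 and 1.19 CPM, below every 2-month library, while mir-141 has 1 library far below the others at 24 months (10.3 CPM) and 1 at 30 months (7.46 CPM).

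mir-200c, the main carrier of the AAUACUG seed, had means that fell by a small amount with age, in a trend that few settings kept. The test of any difference between ages did not call it (edgeR adjusted p = 0.372). At 2 months its libraries held 7.50, 5.53, 7.83, 9.97 and 6.30 CPM, and at 9 months 9.11, 6.75, 5.27, 7.48 and 7.02 CPM. At 15 months they held 7.72, 8.26, 7.79, 6.69 and 4.44 CPM. The values at 24 months were 7.34, 5.29, 5.99, 3.87 and 5.75 CPM, and at 30 months 4.82, 3.59, 6.09, 5.50 and 6.85 CPM. All ages overlapped, but 5 of 5 libraries of 24 months and 5 of 5 of 30 months lay below the 2-month mean of 7.42 CPM. Means followed age from 7.42 ± 1.70 CPM at 2 months through 7.13 ± 1.38, 6.98 ± 1.53 and 5.65 ± 1.25 to 5.37 ± 1.25 at 30 months (SD, n = 5 each), and no neighbouring ages differed beyond their spread.

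The trend of mir-200c was −0.18 log2 units per 10 months (SE 0.06, edgeR adjusted p = 0.0405). No single age passed against 2 months, with a log2 change of −0.47 at 30 months (SE 0.21, edgeR adjusted p = 0.136). The trend call ended in 32 of 40 alternatives, among them 22 of the 25 fits without 1 library, with edgeR adjusted p from 0.0378 to 0.156 over those 25. It held without 2 months replicate 2, 9 months replicate 3 or 30 months replicate 5. With library totals the slope was −0.07 (edgeR adjusted p = 0.552) while the median of all tested precursors moved to 0.09, and relative to the median mir-200c stood at −0.16 with TMM factors and −0.17 with totals.

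mir-141, the cluster partner of mir-200c and main carrier of the AACACUG seed, varied widely between libraries, by a coefficient of variation of 43.6% over all 25, beside 44.9% for mir-205 and 24.0% for mir-200c. Its libraries held 55.9, 52.9, 107, 99.9 and 83.2 CPM at 2 months. They held 76.7, 64.3, 49.9, 54.6 and 45.8 CPM at 9 months and 70.7, 67.9, 115, 61.5 and 32.5 CPM at 15 months. At 24 months they held 74.7, 10.3, 69.4, 36.9 and 57.3 CPM, and at 30 months 56.7, 7.46, 56.0, 30.4 and 49.1 CPM. Replicate 2 of 24 months and replicate 2 of 30 months stood far below the other 23 libraries, whose lowest value was 30.4 CPM. All ages overlapped, and the coefficient of variation of mir-141 was 21.3% at 9 months but 53.1% at 24 and 52.6% at 30 months.

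Mean mir-141 was 79.8 ± 24.7 CPM at 2 months (SD, n = 5) and 39.9 ± 21.02 at 30 months (SD, n = 5), a log2 change of −0.999 (SE 0.44, edgeR adjusted p = 0.138). A change of nearly the same size passed for mir-205, with a smaller SE. In between stood 15 months at 69.6 ± 29.8, 9 months at 58.2 ± 12.4 and 24 months at 49.7 ± 26.4 CPM (SD, n = 5 each), and neighbours in this order overlapped. The trend of −0.32 log2 units per 10 months did not pass (SE 0.13, edgeR adjusted p = 0.0963), and the limma-voom fit alone of 41 alternatives called it (slope −0.42, limma-voom adjusted p = 0.0451).

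The 2 libraries low in mir-141 had totals of 17.3 and 10.4 M and came from lanes 8 and 7. The median total was 15.39 M over all libraries and 10.44 M at 30 months, so the second was shallow beside the whole series but not for its age. mir-200c held 5.29 CPM in the first and 3.59 CPM in the second, which is below the lowest of the other 23, at 3.87 CPM. mir-205 held 1.24 and 0.921 CPM, within the range of the others. Without these 2 libraries, a choice made after their values were seen, the trend of mir-141 was −0.19 (SE 0.09, edgeR adjusted p = 0.167). That of mir-200c was −0.13 (SE 0.06, edgeR adjusted p = 0.173) and that of mir-205 was −0.28 (SE 0.12, edgeR adjusted p = 0.126). None of the 3 passed, and the 30-month change of mir-205 was −0.96 (SE 0.37, edgeR adjusted p = 0.0975).

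Those 2 libraries stood apart beyond mir-141: both lay below all other 23 for 25 of the tested precursors, 7.40%, and above all of them for 1. mir-144, mir-26b and let-7f-2 were among those below, and so were the precursors closest to mir-141, whose correlation these libraries help to set. Among tested precursors outside the family, the 3 with the largest Pearson correlation to mir-141 in log2 CPM over 25 libraries were mir-101a at r = 0.96, mir-101b at 0.95 and mir-20a at 0.94. On deviations from the age means these were 0.95, 0.95 and 0.93, and without the 2 libraries they were 0.89, 0.89 and 0.88 (n = 23). mir-101a held 37.3 and 36.8 CPM in those libraries, against a lowest value of 103 CPM in the other 23. The points share library scaling and depth, and the correlations are a description only. mir-141 and its cluster partner mir-200c were less alike, with r = 0.72 over 25 libraries and 0.62 on deviations from the age means.

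**Figure D2:**
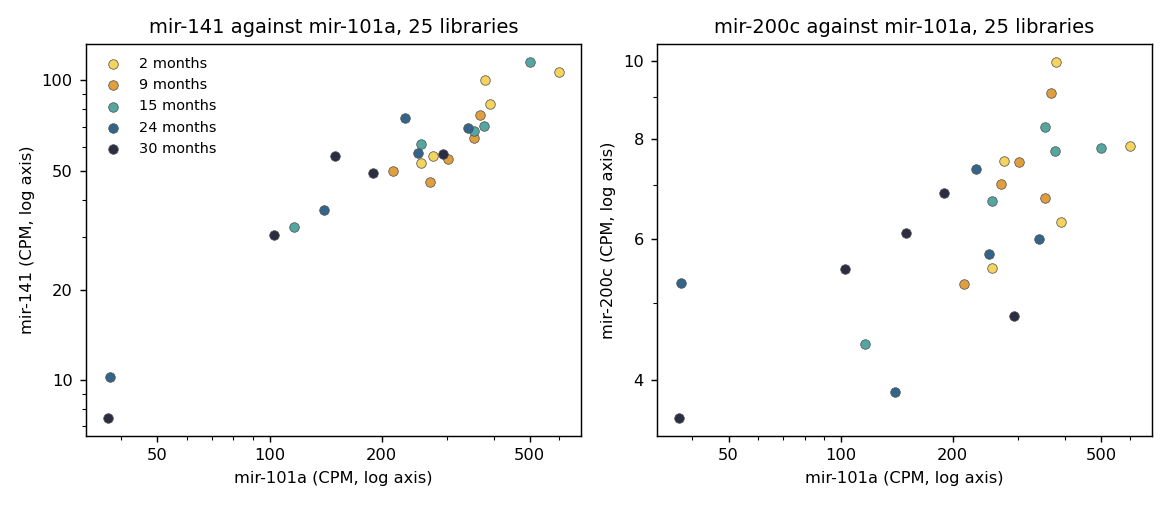
mir-141 (left) and mir-200c (right) against mir-101a, all in CPM on log axes, with 1 point for each of 25 libraries coloured by age. The left panel is close to a line (r = 0.96), with the 2 low libraries at 10.3 and 7.46 CPM of mir-141 at its foot, and the right panel is broader.

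The 3 precursors most like mir-200c were mir-20a (r = 0.75), mir-26b (0.73) and mir-144 (0.73), of which mir-144 is a red cell microRNA. For mir-200a they were mir-26b (0.68), let-7c-1 (0.66) and let-7f-2 (0.65). For mir-205 they were mir-7658 (0.67), mir-3060 (0.66) and mir-199a-1 (0.58), but on deviations from the age means r was 0.51, 0.53 and 0.24. mir-205 correlated less with the family, at r = 0.41 with mir-200c, 0.30 with mir-141 and 0.13 with mir-200a. On deviations from the age means those values were 0.09, −0.04 and −0.22, all near or below 0. Median counts were only 27 for mir-205 and 6 for mir-200a, and counting error lowers such correlations. Its part in these values was not tested.

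The rarer chromosome 4 cluster was led by mir-200a, which shares the AACACUG seed with mir-141. Its libraries held 1.68, 0.0709, 1.21, 2.16 and 1.21 CPM at 2 months, 0.276, 1.23, 0.325, 0.777 and 0.702 CPM at 9 months, and 1.73, 0.260, 2.23, 0.199 and 0.162 CPM at 15 months. At 24 months they held 0.882, 0.684, 0.237, 0.176 and 0.0728 CPM, and at 30 months 0.527, 0.0921, 0.567, 0 and 0.397 CPM. High and low libraries occurred together at 2 and 15 months, whereas no library of 30 months exceeded 0.567 CPM. mir-200a passed the low-count filter through 10 libraries at or above 0.650 CPM by library totals, 4 of them of 2 months and 1 of 30 months.

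At 30 against 2 months mir-200a had the largest fitted change of the tested members, −2.03 on the log2 scale, with a wide error (SE 0.81, edgeR adjusted p = 0.102). Its trend was −0.63 log2 units per 10 months (SE 0.23, edgeR adjusted p = 0.0549). Its level also differed by lane. The 5 libraries of lane 5, 1 from each age, held 0 to 0.325 CPM, and the 3 of lane 3 held 0.237 to 0.276 CPM. In lane 4 the libraries of 2, 9 and 15 months held 1.68, 1.23 and 2.23 CPM, and that of 24 months held 0.176 CPM from 1 read. A lane test given age, added after these values were seen, called mir-200a (edgeR adjusted p = 0.0193) and none of the other 3 tested members, whose edgeR adjusted p was 0.933 or more. It called 2.37% of all precursors. With lane in the fit the slope of mir-200a was −0.54 (SE 0.16, edgeR adjusted p = 0.0238). What in a lane the level follows was not tested, and the index sequences in the column headers differ in every library.

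**Figure D3:**
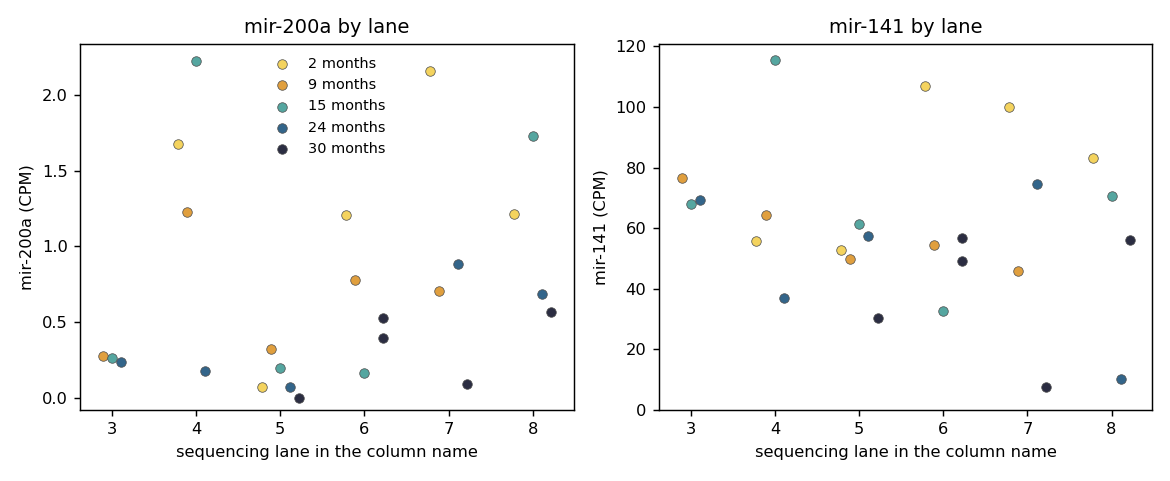
mir-200a (left) and mir-141 (right) in CPM by sequencing lane, 1 point for each of 25 libraries, coloured by age. Every mir-200a point in lanes 3 and 5 lies at or below 0.325 CPM whatever the age, and mir-141 shows no such separation of lanes.

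mir-200b and mir-429, which share the AAUACUG seed with mir-200c, did not pass the low-count filter and have no test in the fit reported here. mir-200b had 1 to 6 counts at 2 months, 2 to 6 at 9 months, 2 to 14 at 15 months, 0 to 14 at 24 months and 3 to 7 at 30 months. Its mean level was 0.196 ± 0.125 CPM in the youngest mice (SD, n = 5) and 0.502 ± 0.279 CPM in the oldest (SD, n = 5), and the ages overlapped. In a fit without the filter, over 865 precursors, its change at 30 months was 1.25 on the log2 scale (SE 0.52, edgeR unadjusted p = 0.0194, adjusted p = 0.229). That is the opposite sign to mir-200a of the same cluster. mir-429 had 1 to 17 counts, with a mean of 0.370 ± 0.170 CPM in the youngest mice (SD, n = 5) and 0.347 ± 0.132 CPM in the oldest (SD, n = 5). Without the filter its change was −0.12 (SE 0.47, edgeR adjusted p = 0.990).

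Between young and middle adulthood no tested member passed in edgeR. At 9 against 2 months 0 of 4 were called, 0 had an unadjusted p under 0.05, and DESeq2 and limma-voom each called 0, where edgeR called 2.07% of all precursors. The counts were the same at 15 against 2 months, beside 1.48% of all precursors. At 24 against 2 months 0 of 4 were called by any of the 3 tools, although 12.1% of all precursors were called by edgeR. At these 3 ages every member overlapped its 2-month libraries, beside 3.25%, 2.37% and 10.4% of tested precursors without overlap in either direction. At 24 months mir-200a alone had an unadjusted p under 0.05, beside 24.6% of all tested precursors, with a log2 change of −1.50 (SE 0.70, edgeR adjusted p = 0.173).

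The 3 mir-200 members tested had negative fitted changes at every later age, and mir-205 had positive ones at 9 and 15 months, of 0.32 (SE 0.28) and 0.33 (SE 0.28). The signs of mir-200c at 9 and 15 months turned with library totals, to 0.09 and 0.08. At 30 months the unadjusted p was under 0.05 with a negative change for each of the 4, as for 13% of all tested precursors, and mir-205 alone passed the adjustment. mir-200a passed the filter through 10 libraries, 4 of them of 2 months and 1 of 30 months, so this count is a description only. mir-200b, not tested in that fit, had a positive change with an unadjusted p under 0.05 in the edgeR fit without the filter. Comparisons against 2 months share the same 5 control libraries.

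**Figure D4:**
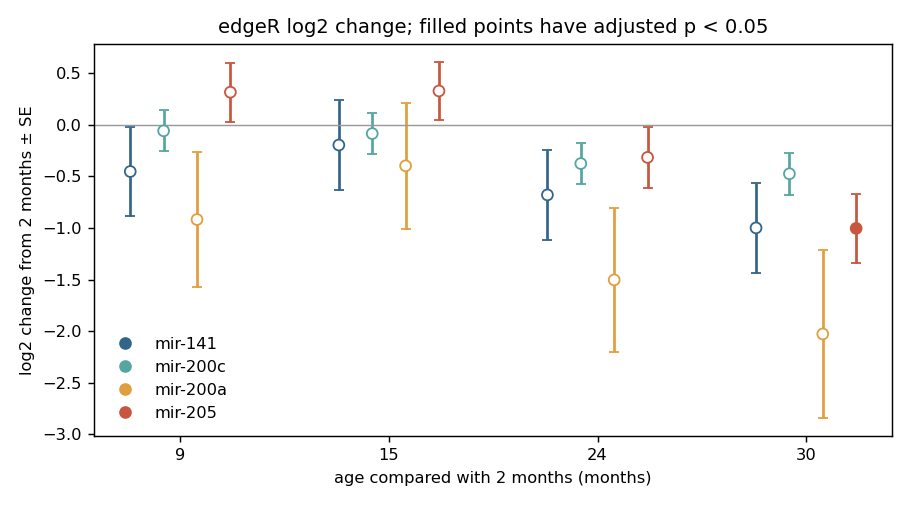
Fitted log2 change from 2 months with its SE for the 4 tested members at 9, 15, 24 and 30 months. The only filled point, marking an edgeR adjusted p under 0.05, is mir-205 at 30 months (−1.004), and the bars of mir-200a are the widest.

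Summed over its 5 members, the mir-200 family stood at 89.0 ± 26.3 CPM at 2 months, 66.7 ± 13.5 at 9, 78.3 ± 32.0 at 15, 56.5 ± 27.6 at 24 and 46.5 ± 22.4 at 30 months (SD, n = 5 each). The sum is set mainly by mir-141, and its libraries overlapped between all ages, with 11.7 to 64.1 CPM at 30 months against 59.1 to 117 CPM at 2 months. In bulk blood, fewer cells of a type and less RNA per cell cannot be told apart.

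Of 16 other microRNAs known from epithelia, all were in the table, 12 were tested, and by the trend test 3 rose with age and 0 fell. Over all tested precursors 10.7% rose and 9.17% fell by that test. The list's median slope was 0.06 log2 units per 10 months, beside −0.02 over all tested precursors. At 30 against 2 months its median change was 0.45, beside −0.04 over all. mir-203, known from skin, rose by 0.59 log2 units per 10 months (SE 0.05, edgeR adjusted p = 3.87e-10), from a 2-month mean of 7.96 ± 0.702 CPM (SD, n = 5) to 25.2 ± 2.87 CPM at 30 months (SD, n = 5). mir-182 and mir-183, of the cluster known from sensory epithelia, rose by 0.48 (SE 0.09, edgeR adjusted p = 7.85e-04) and 0.28 (SE 0.07, edgeR adjusted p = 0.00887). The skin pair mir-203 and mir-205 therefore had trends of opposite sign.

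Markers of other tissues were read beside these changes, where 19.8% of all tested precursors passed the trend test. The 4 gut microRNAs, and mir-375 of the neuron and endocrine list, are also among the 16 epithelial microRNAs above. The gut list of mir-192, both mir-194 precursors and mir-215 had 0 of 4 members past the trend test, with sums of 3268 to 4496 CPM at 2 months and 4041 to 6397 CPM at 30 months. The neuron and endocrine list, with 5 of 7 tested, had 0 past it, and its sum was 12.3 to 19.3 CPM at 2 months and 12.2 to 19.98 CPM at 30 months. The muscle list, with 2 of 6 tested, had 0 past it, at 23.2 to 235 CPM and 9.40 to 43.9 CPM, with mir-1a-1 and mir-206 under 3 counts in every library. The liver microRNA mir-122 was not tested and stayed at or below 1.13 CPM.

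The trend test called 9.17% of all tested precursors lower and 10.7% higher. Among blood cell markers, the red cell list had 1 of 4 members past it, mir-144, which fell by 0.49 on the log2 scale per 10 months (SE 0.11, edgeR adjusted p = 0.00180). The list's sum ran from 717000 to 858400 CPM at 2 months and from 501700 to 778400 CPM at 30 months. mir-126a of platelets and endothelium fell by 0.36 on the log2 scale per 10 months (SE 0.12, edgeR adjusted p = 0.0293), from 10.3 to 14.6 CPM at 2 months to 2.67 to 7.22 CPM at 30 months. mir-223 of myeloid cells rose by 0.43 (SE 0.07, edgeR adjusted p = 1.53e-04), from 55.1 to 62.5 CPM to 109 to 208 CPM. Without the 2 libraries low in mir-141 the slope of mir-144 was −0.38 (SE 0.09, edgeR adjusted p = 0.00254), and mir-126a no longer passed, at −0.27 (SE 0.11, edgeR adjusted p = 0.116). The calls of mir-203, mir-182, mir-183 and mir-223 held without them, with edgeR adjusted p of 0.00386 or less. The lymphocyte pair mir-150 and mir-342 had 0 of 2 past the test, at 287 to 506 CPM and 157 to 405 CPM. Whether any of these cell types had a part in the levels of mir-205, mir-200c or mir-141 was not tested.

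**Figure D5:**
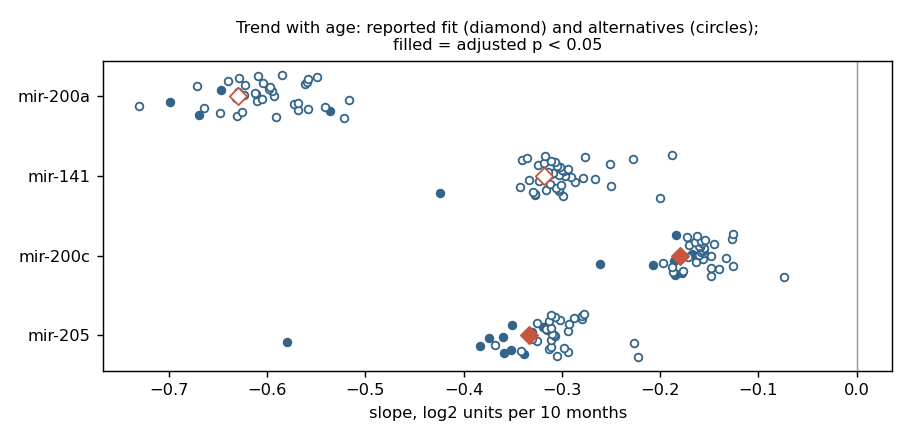
Slope with age of the 4 tested members in log2 units per 10 months: the diamond is the reported fit and each circle 1 alternative, filled where the adjusted p is under 0.05. Every slope lies below 0, and most circles are open, also for mir-205 and mir-200c, whose diamonds are filled.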

How the data were processed

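Libraries were made from blood RNA with Illumina's TruSeq small RNA kit, as the labels' protocols state. The values are raw counts per microRNA precursor in 1 table the authors deposited. The submitters' processing notes list bcl2fastq 1.8.4, SAMtools 1.3.1-9 and Trimmomatic 0.36 and give no step for any of them. For the aligner, counter, microRNA release, build, strand setting and reads that match several hairpins, the answer is the same: not given in the sources used here.

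Columns were matched to libraries by the age and number in their names, and 0 columns were left unmatched. No 2 libraries of an age matched within sampling noise (smallest chi-square per degree of freedom 125 over 50 pairs). Tests used edgeR 4.0.16 in R 4.3.3 (quasi-likelihood F test, TMM factors, default low-count filter by age, robust dispersions) in 1 fit of 25 libraries. The filter kept 338 of 865 detected precursors, 4 of the 6 members among them, and the common biological coefficient of variation was 28.1%. P-values were two-sided and Benjamini-Hochberg adjusted over all 338, with a threshold of 0.05. Slopes come from a fit on age in months. log2 CPM used a prior count of 2. Alternatives used DESeq2 1.42.0, limma 3.58.1, other scalings and filters, lane, thinning to 4884058 counts and fits without 1 library. The members, lists and rules were chosen with earlier results of these data known. The rule named all 6 members, up to 3 members of each list past the trend test, and the 3 precursors most like each tested member.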

Additional observations from a re-analysis of the deposited data

Results flagged for a closer look

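1 of 30 sets of 5 libraries, 6 precursors at 5 ages, held a library far from its group, by Dixon's criterion at 95%. mir-200b stood at 0.992 CPM in 30 months replicate 3, with the other 4 libraries of that age at 0.3003 to 0.451 CPM and a gap of 0.782 of the range. The value rests on 7 reads in a library of 5.747 M, with an exact Poisson 95% interval of 2.81 to 14.4 reads. Chance flags about 1 in 20 such sets.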

How the results depend on the processing

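The count of members called was 0 in every alternative run at 9, 15 and 24 against 2 months. Of the tested members, a filter of 10 CPM kept only mir-141, so mir-200c, mir-200a and mir-205 have no test under it. Thinning left mir-200a without a test. At 30 against 2 months it was 1, and 0 with library totals, upper quartile factors, limma-voom, no filter, a filter of 10 CPM (which removes mir-205), lane in the fit, thinning, without the libraries of lane 3, 4, 6, 7 or 8, or without the 2 libraries low in mir-141. For any age it was 1, and 0 under the same settings except no filter and without lane 4, which kept it. For the trend it was 2, and 0 with library totals, upper quartile factors, no filter, the 10 CPM filter, without lane 3, 4 or 6, or without the 2 low libraries; it was 1 without lane 7, lane 8 or the 2-month libraries, or with thinning. Without 1 library at a time, with 340 to 349 precursors tested, the counts ran from 0 to 1 for any age and for 30 months and from 0 to 2 for the trend. The mir-205 call at 30 months was kept in 6 of those 25 fits (without 2 months replicate 4, 9 months replicate 4, 15 months replicate 3 or 4, or 24 months replicate 1 or 4), with edgeR adjusted p from 0.0301 to 0.137. Its trend call was kept in 6 (without 2 months replicate 4 or 5, 9 months replicate 4, 15 months replicate 4 or 5, or 24 months replicate 1), with edgeR adjusted p from 0.0248 to 0.109. Where the trend count stayed at 2 the members could differ. With lane in the fit mir-200c was lost (edgeR adjusted p = 0.0560) and mir-200a gained (edgeR adjusted p = 0.0238). With limma-voom mir-205 was lost (limma-voom adjusted p = 0.0589) and mir-141 gained (limma-voom adjusted p = 0.0451). DESeq2 kept the mir-205 and mir-200c calls and added the trend of mir-200a, for 3. The cause of these changes was not tested beyond the removal by the filter.

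Signs turned for changes near 0 that did not pass. mir-200c at 9 months was 0.0872 with library totals and 0.0377 without lane 7, and ran from −0.133 to 0.0728 without 1 library. At 15 months it was 0.0764 with totals, 0.0165 with no filter, 0.104 without lane 6 and 0.0546 without lane 7, and ran from −0.11 to 0.0739 without 1 library. mir-141 at 15 months was 0.152 without lane 6 and ran from −0.398 to 0.011 without 1 library. mir-205 at 24 months was 0.0627 with totals and 0.182 with thinning. At a floor of 10 counts mir-205 was present in 22 libraries, mir-200a in 10, mir-429 in 5 and mir-200b in 3, against 25, 19, 22 and 19 at 3 counts. No paired analysis was possible because the replicate numbers follow the order of deposit and pair no animals across ages. Depth limits mir-205, mir-200a, mir-200b and mir-429 most at 30 months.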

Other observations

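Count ratios within a library do not depend on scaling. The ratio of mir-205 to mir-203 counts was 0.138 to 0.330 at 2 months, 0.106 to 0.317 at 9, 0.0852 to 0.304 at 15, 0.0479 to 0.0962 at 24 and 0.0318 to 0.0433 at 30 months, chosen after the values were seen. The ranges of 24 and 30 months did not overlap with each other, and only 15 months replicate 3, at 0.0852, lay below 0.0962 among the younger libraries. mir-203 itself rose with age, so this ratio moves with both precursors. How often other pairs separate in this way was not tested. The ratio of mir-205 to mir-200c counts overlapped, at 0.124 to 0.436 at 2 months and 0.127 to 0.256 at 30 months. The ratio of mir-141 to mir-200c counts, 2 hairpins of 1 cluster, was 6.52 to 14.8 at 2, 9 and 15 months. It was 1.94 in 24 months replicate 2 and 2.08 in 30 months replicate 2, the lowest of the 25 libraries.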
